A study of Mus musculus with 9 samples.

Results

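The genes described here are Ahdc1, Rusc2 and Zcchc24, 3 of the 52264 rows of a table of read counts per gene from mouse embryonic stem cells. They were chosen by the measured differences between groups: their transcripts were higher than in control cells after exposure to the inhibitor BRD0705 and lower after exposure to the inhibitor CHIR. All 3 passed the filter on low counts that left 15366 genes for testing. Because both inhibitor contrasts against control chose the genes, and the direct contrast between inhibitors follows from them, the values of these 3 genes are given as a description and carry no test.

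The cells of every group were embryonic stem cells of genotype beta-catenin-/-, lacking the transcriptional effector of canonical Wnt signalling according to the labels. They were expanded on feeder-treated dishes with 3 µM CHIR-99021, 1 µM of PD03 (a MEK inhibitor) and 40 ng/ml LIF, and held overnight in N2B27, a serum-free medium, before the experiment. The 3 groups were then left as untreated control, given BRD0705 or given CHIR for 30 min, with 3 libraries each, at inhibitor doses that the labels do not give. BRD0705 is an inhibitor selective for GSK3α, while CHIR-99021, which the label CHIR is taken to mean, inhibits GSK3α and GSK3β. The labels do not say whether the line is a single clone, or whether the replicates were separate cultures, so the spread and the p-values cover only the differences between these libraries, which may be technical. Libraries held 17359422 to 20773337 counts.

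GSK3 kinases phosphorylate β-catenin and mark it for degradation, and they also act on many proteins outside that pathway, including transcription factors and proteins of the translation machinery. The 3 genes belong to no common pathway that is well described. Ahdc1 encodes Gibbin, a large nuclear protein with AT-hooks, short motifs that bind the minor groove of AT-rich DNA; mutations in the human gene cause Xia-Gibbs syndrome, a developmental disorder. Rusc2 encodes iporin, a cytoplasmic protein with a RUN domain and an SH3 domain that binds Rab GTPases and links vesicles carrying the autophagy protein ATG9A, sorted by the adaptor complex AP-4, to kinesin-1. Zcchc24 encodes a small protein with zinc-binding motifs of the CCHC type, found in many proteins that bind nucleic acids.

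The start regions are shown because the 3 genes were picked for moving together, so that what their promoters share can be read directly. Each sequence runs from 250 bases before to 50 bases after an annotated start, 5′ to 3′ on the strand of the gene, from RefSeq on GRCm38.p6; capitals mark each GGGCGG (a GC box, bound by Sp family factors) and each CCAAT (bound by NF-Y), on either strand. Ahdc1 lies at chr4:133011256-133011555 on the plus strand, Rusc2, the first of 3 starts in that table, at chr4:43381732-43382031 on the plus strand, and Zcchc24 at chr14:25769023-25769322 on the minus strand. The annotated genes of Ahdc1 and Rusc2 begin upstream of the starts shown, at chr4:133011265 and chr4:43377202. Which starts these cells use was not tested.
Ahdc1: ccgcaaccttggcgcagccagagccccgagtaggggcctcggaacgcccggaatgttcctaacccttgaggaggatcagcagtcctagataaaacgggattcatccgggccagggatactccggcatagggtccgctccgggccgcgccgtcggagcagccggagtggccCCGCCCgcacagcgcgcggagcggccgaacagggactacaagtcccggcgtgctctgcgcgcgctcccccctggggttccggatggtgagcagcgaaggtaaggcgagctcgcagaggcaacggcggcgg
Rusc2: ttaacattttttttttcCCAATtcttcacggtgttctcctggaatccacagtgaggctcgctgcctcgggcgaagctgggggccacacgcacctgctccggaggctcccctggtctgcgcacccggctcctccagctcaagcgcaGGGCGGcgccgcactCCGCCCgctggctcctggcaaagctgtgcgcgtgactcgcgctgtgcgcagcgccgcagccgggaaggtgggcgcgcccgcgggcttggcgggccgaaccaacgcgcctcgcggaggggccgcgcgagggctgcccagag
Zcchc24: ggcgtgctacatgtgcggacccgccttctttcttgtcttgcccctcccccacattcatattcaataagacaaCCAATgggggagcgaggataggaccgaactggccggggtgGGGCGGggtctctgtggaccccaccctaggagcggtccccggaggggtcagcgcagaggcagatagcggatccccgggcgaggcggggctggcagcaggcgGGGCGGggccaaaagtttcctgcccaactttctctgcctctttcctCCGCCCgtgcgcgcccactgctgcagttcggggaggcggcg

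All of these windows were rich in G and C. The GC content was 69.0% for Ahdc1, 70.0% for Rusc2 and 66.3% for Zcchc24, against a median of 52.7% over 32851 start regions of the same length, which puts them at percentiles 88.9, 90.4 and 84.4. They held 35, 35 and 23 CpG dinucleotides against a median of 7. A GGGCGG stood once in the Ahdc1 window, 2 times in the Rusc2 window and 3 times in the Zcchc24 window, and 35.7% of all windows hold at least one. CCAAT stood once each in the Rusc2 and Zcchc24 windows, as in 37.4% of all windows. None of the 3 windows held either core of the TCF/LEF factors, CTTTGA (found in 16% of all windows) and the related CTTTGT (18.7%). Absent from them as well were the cAMP response element TGACGTCA (in 1.79% of all windows), the AP-1 site TGANTCA (in 7.81%), the E-box CACGTG (in 7.15%) and the TATA box TATAAA (in 13.6%). The other two Rusc2 starts differ from the one shown. The window of the second overlaps it and held 2 GGGCGG, no CCAAT and 44 CpG at 77.7% GC, while that of the third held neither motif and 10 CpG at 61.3% GC. Motifs were searched on both strands, and none of the marked motifs overlapped another.

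Ahdc1 was the most highly expressed of the 3. Its gene (ENSMUSG00000037692) spans chr4:133011265-133078110 on GRCm38, and its annotated transcripts have up to 9 exons. In CPM (counts scaled to a common library total), the control libraries stood at 203, 192 and 203 CPM, the BRD0705 libraries at 251, 229 and 228 CPM and the CHIR libraries at 133, 140 and 151 CPM, in the order of replicates 1 to 3. The groups did not overlap: every BRD0705 library was above every control, as in 9.83% of all tested genes, and every CHIR library below, as in 14.1%. The group means were 199 ± 6.26, 236 ± 12.7 and 141 ± 9.23 CPM (SD, n = 3 each). On the log2 scale, the difference from control was 0.25 ± 0.06 (SE) with BRD0705 and -0.50 ± 0.06 with CHIR, or 1.19 and 0.709 times the control level. Behind these values are 2543 to 4811 counts per library.

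Rusc2 (ENSMUSG00000035969) lies on the same chromosome, at chr4:43377202-43427092 on GRCm38, with up to 13 exons. Its control libraries were at 54.4, 52.6 and 51.0 CPM, its BRD0705 libraries at 68.6, 66.6 and 62.3 CPM and its CHIR libraries at 36.3, 41.4 and 38.4 CPM. Again the 3 groups were fully separated, where 9.83% of all tested genes had BRD0705 fully above control and 14.1% CHIR fully below. The gap was 7.89 CPM from the highest control to the lowest BRD0705 library. From the lowest control to the highest CHIR library it was 9.55 CPM. The means were 52.6 ± 1.71, 65.8 ± 3.24 and 38.7 ± 2.57 CPM (SD, n = 3 each), and the log2 differences from control 0.32 ± 0.06 and -0.44 ± 0.06 (SE). Counts per library ran from 703 to 1311.

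Zcchc24 (ENSMUSG00000055538; chr14:25711644-25769072 on GRCm38, up to 5 exons) had the tightest controls, at 31.6, 31.8 and 31.9 CPM. Its BRD0705 libraries were at 42.5, 39.8 and 38.6 CPM and its CHIR libraries at 26.4, 26.1 and 22.9 CPM. The groups did not overlap, with the same shares over all tested genes (9.83% and 14.1%), and CHIR replicate 3 stood below the other CHIR libraries. The means were 31.8 ± 0.167, 40.3 ± 2.03 and 25.1 ± 1.97 CPM (SD, n = 3 each), with log2 differences from control of 0.34 ± 0.07 and -0.34 ± 0.07 (SE), from 418 to 812 counts per library.

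**Figure D1:**
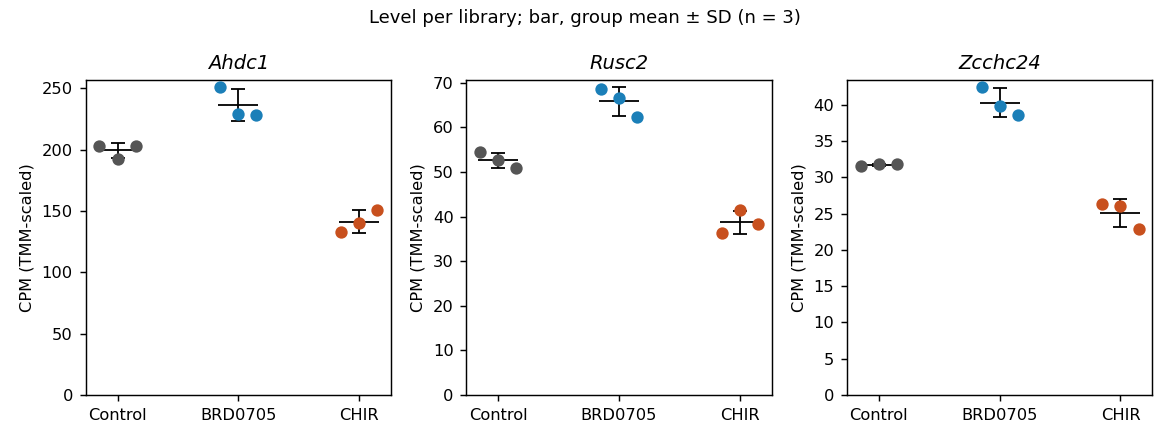
Level of Ahdc1, Rusc2 and Zcchc24 in each library, in CPM scaled by TMM, with axes from 0; points are libraries and bars the group mean ± SD (n = 3). In each gene the 3 BRD0705 libraries lie above the 3 control libraries, and the 3 CHIR libraries below them.

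The order of the groups was the same in all 3 genes, BRD0705 above control above CHIR, and no neighbouring groups in that order overlapped. BRD0705 replicate 1 was the highest of the 9 libraries for each gene. As a share of the control mean, the BRD0705 mean was 119% for Ahdc1, 125% for Rusc2 and 127% for Zcchc24, and the CHIR mean 70.9%, 73.5% and 79.1%. On the log2 scale the step below control was thus the larger one for Ahdc1 and Rusc2, and both steps were of the same size for Zcchc24. Set directly against each other, the log2 level with BRD0705 exceeded that with CHIR by 0.74 ± 0.06, 0.77 ± 0.06 and 0.68 ± 0.07 (SE), that is 1.67, 1.70 and 1.60 times, with no overlap of the inhibitor groups. Over all tested genes, 13.7% had every BRD0705 library above every CHIR library, and 7.77% passed the adjusted p of 0.05 between inhibitors by edgeR, 4.80% higher with BRD0705 and 2.97% lower. Both comparisons against control use the same 3 control libraries.

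Divided by the length of the longest annotated transcript, the control level was 27.5 ± 0.862 CPM per kilobase for Ahdc1, 9.84 ± 0.32 for Rusc2 and 6.69 ± 0.0351 for Zcchc24 (SD, n = 3 each). Over all 9 libraries these levels stood at percentiles 86.8, 69.8 and 62.4 of the 15134 tested genes with a known length, whose median was 3.90 CPM per kilobase. The ratios between genes varied over the 9 libraries. Counts of Ahdc1 were 3.38 to 3.98 times those of Rusc2, and the group means were 3.79 ± 0.173 (control), 3.59 ± 0.128 (BRD0705) and 3.65 ± 0.273 (CHIR; SD, n = 3 each). Counts of Ahdc1 were 5.02 to 6.61 times those of Zcchc24, with the widest spread in the CHIR libraries (5.02, 5.36 and 6.61). Counts of Rusc2 were 1.37 to 1.72 times those of Zcchc24, and the lowest ratio came from CHIR replicate 1 and the next from CHIR replicate 2.

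The genes were chosen for rising with BRD0705 and falling with CHIR, and the threshold of that choice is not known. The rule applied here was an adjusted p under 0.05 in both contrasts, with opposite signs, by edgeR's quasi-likelihood test over all genes. By edgeR, the adjusted p-values for BRD0705 and CHIR against control were 0.0452 and 7.19e-05 for Ahdc1. They were 0.0175 and 0.000449 for Rusc2, and 0.0183 and 0.00709 for Zcchc24. These values come from the libraries that chose the genes and carry no test. Under BRD0705, 1.22% of all tested genes passed that threshold (0.690% higher, 0.534% lower), and under CHIR 6.30% (2.52% higher, 3.78% lower); an unadjusted p under 0.05 was reached by 15.9% and 20.5%. The numbers of higher and lower genes moved with the processing. For CHIR against control they were 387 and 581, but 252 and 702 by library size alone and 466 and 457 by DESeq2. For BRD0705 against CHIR they were 738 and 456, but 912 and 239 by library size alone. The rule took 3 genes in this direction, 0.0195% of those tested, and 1 gene, Cirbp, in the reverse one (0.00651%). The CPM values of both inhibitor groups cleared the control range in the directions of the 3 genes in 137 tested genes, or 0.892%. Just inside the threshold stood Ahdc1, whose larger adjusted p was 0.0452. Just outside stood Caskin2, with 0.0451 for BRD0705 and 0.0524 for CHIR, Prr12, with 0.0404 and 0.0530, and Gdpgp1, with 0.0729 and 0.0102, all by edgeR.

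**Figure D2:**
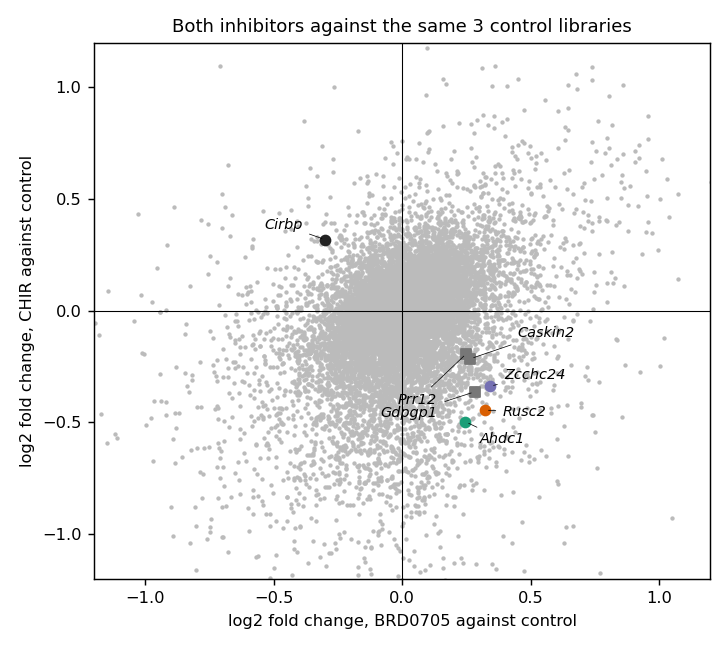
Log2 fold change against control for all tested genes, BRD0705 on the x axis and CHIR on the y axis, up to 1.2 either side of 0 (123 of 15366 genes lie outside). Circles mark the 3 genes and Cirbp, and squares the 3 genes just outside the threshold; Ahdc1, Rusc2 and Zcchc24 lie at 0.25 to 0.34 on x and -0.50 to -0.34 on y, and both axes share the control libraries.

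The direction of each of the 6 differences from control was the same under all 22 alternative settings. These settings reuse the libraries that chose the genes, so the kept directions are a description and carry no test. The rule used the adjusted p of 0.05 on these libraries, so counts of settings passed describe only how the calls move with processing. The CHIR side passed the adjusted p of 0.05 in all 22 for Ahdc1 and Rusc2 and in 20 for Zcchc24 (edgeR, DESeq2 or limma). The BRD0705 side passed in 10, 13 and 15 of the 22. It was lost in all 3 genes without BRD0705 replicate 1, BRD0705 replicate 2, control replicate 2 or control replicate 3, where the number of genes called in opposite directions was 0 in place of 4; without BRD0705 replicate 3 it was 7, and without CHIR replicate 2 it was 2. For Ahdc1 it was also lost without CHIR replicate 2 or control replicate 1, and with the replicate number as a block (edgeR adjusted p 0.0506).

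**Figure D3:**
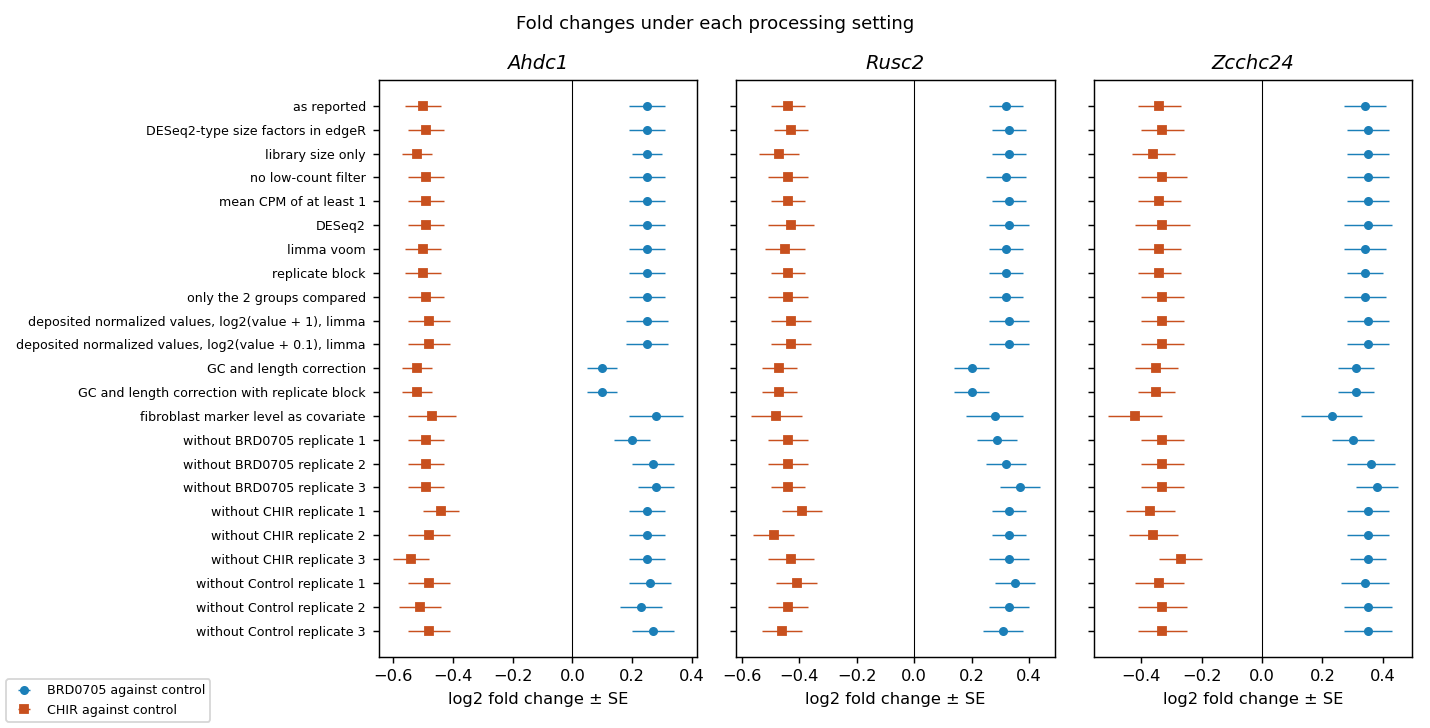
Log2 fold change ± SE of each gene against control (x axis) under the reported fit and 22 alternative settings (rows), with circles for BRD0705 and squares for CHIR. No symbol changes side of 0, and the BRD0705 symbols of Ahdc1 and Rusc2 move toward 0 under the correction for GC content and length. All rows reuse the libraries that chose the genes.

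A joint correction for GC content and transcript length lowered the BRD0705 difference of all 3 genes, and least that of Zcchc24. The share of each property was not tested. Ahdc1 and Rusc2 have transcripts of 61.3% and 60.7% GC, at percentiles 98.0 and 97.4 of the tested genes, and Zcchc24 one of 51.9%, at percentile 61.9. For each library, the distance of every gene from its mean over the 9 libraries was ranked against GC content, and the Spearman correlation across genes was 0.0800 to 0.279 in the BRD0705 libraries, -0.287 to 0.186 in the controls and -0.121 to -0.0643 in the CHIR libraries. Genes are not independent replicates, so these values are a description of each library. The highest of the 9 was BRD0705 replicate 1. After a library-wise correction for GC content and transcript length, the BRD0705 difference was 0.10 ± 0.05 for Ahdc1, 0.20 ± 0.06 for Rusc2 and 0.31 ± 0.06 for Zcchc24 in log2 units (SE; edgeR adjusted p 0.422, 0.125 and 0.0339). The CHIR difference was -0.52 ± 0.05, -0.47 ± 0.06 and -0.35 ± 0.07 after the same correction. Of the 3 genes, Zcchc24 alone still met the rule.

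The cells were checked against marker genes, since they had been expanded on feeder-treated dishes. All 10 embryonic stem cell markers were detected, with a summed level of 5010 to 5110 CPM (control), 5060 to 5210 CPM (BRD0705) and 5190 to 5400 CPM (CHIR). Against control, 0 of them passed the edgeR threshold with BRD0705. With CHIR 2 passed, Esrrb and Klf4, both higher (edgeR adjusted p 0.00734 and 0.0369). Between inhibitors 3, Esrrb, Klf4 and Tdgf1, were lower with BRD0705 (edgeR adjusted p 0.0474, 0.00066 and 0.0321), where 2.97% of all tested genes were. All 10 fibroblast markers were detected too, and none was at 0 in any group. They summed to 2360 to 2850 CPM (control), 3010 to 3100 CPM (BRD0705) and 2690 to 3210 CPM (CHIR). Each of the 10 fibroblast markers was above control under both inhibitors. Of them 2, Col1a1 and Col5a1, passed the edgeR threshold in each contrast against control. Over all tested genes, 1.22% passed with BRD0705 and 6.30% with CHIR. Between inhibitors 0 of the 10 passed. With the mean fibroblast marker level as a covariate, the BRD0705 difference was 0.28 ± 0.09 for Ahdc1, 0.28 ± 0.10 for Rusc2 and 0.23 ± 0.10 for Zcchc24 (SE; adjusted p 0.535, 0.561 and 0.636 by edgeR). The CHIR difference was -0.47 ± 0.08, -0.48 ± 0.09 and -0.42 ± 0.09 (SE; adjusted p 0.00546, 0.011 and 0.0247 by edgeR). How much of each gene's RNA came from feeder cells was not tested, and in such bulk RNA a change in the number of cells of one type cannot be told apart from a change in RNA per cell.

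Genes with the most similar profile were named by the root mean square difference of log2 CPM over the 9 libraries, each gene centred on its own mean, among the 12408 tested genes whose mean log2 CPM reached 1. For Ahdc1 these were Sbk1 (0.063), which encodes a kinase, Bahcc1 (0.072), which encodes a chromatin reader with a BAH domain, Rusc2 (0.072), Ccdc92b (0.080) and the zinc finger gene Zscan22 (0.081), where the median over all eligible genes was 0.337. For Rusc2 they were Ccdc92b (0.064), Ahdc1 (0.072), Zcchc24 (0.089), the zinc finger homeobox gene Zfhx2 (0.090) and Zscan22 (0.091). For Zcchc24 they were Gdpgp1 (0.082), which encodes a GDP-glucose phosphorylase, Rusc2 (0.089), the talin rod domain gene Tlnrd1 (0.091), Zscan22 (0.099) and Arhgap44 (0.100). Ahdc1 ranked 24th for Zcchc24, and Zcchc24 39th for Ahdc1. Close profiles among the 3 genes follow from how they were chosen, on these same libraries.

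In all 8 of the nearest genes that are not among the 3, every BRD0705 library lay above and every CHIR library below every control, which is what the measure selects for. Their log2 differences from control ran from 0.12 (Bahcc1) to 0.28 (Gdpgp1) with BRD0705 and from -0.51 (Zfhx2) to -0.32 (Arhgap44) with CHIR. Zfhx2, for example, had group means of 34.2 ± 1.53 CPM (control), 39.9 ± 3.95 CPM (BRD0705) and 24.1 ± 0.219 CPM (CHIR; SD, n = 3 each). The GC content of the 8 transcripts spanned 47.6% to 61.3%. With the GC and length correction, the BRD0705 difference of Bahcc1, whose transcript is 60.3% GC, was -0.04 ± 0.05 (SE).

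**Figure D4:**
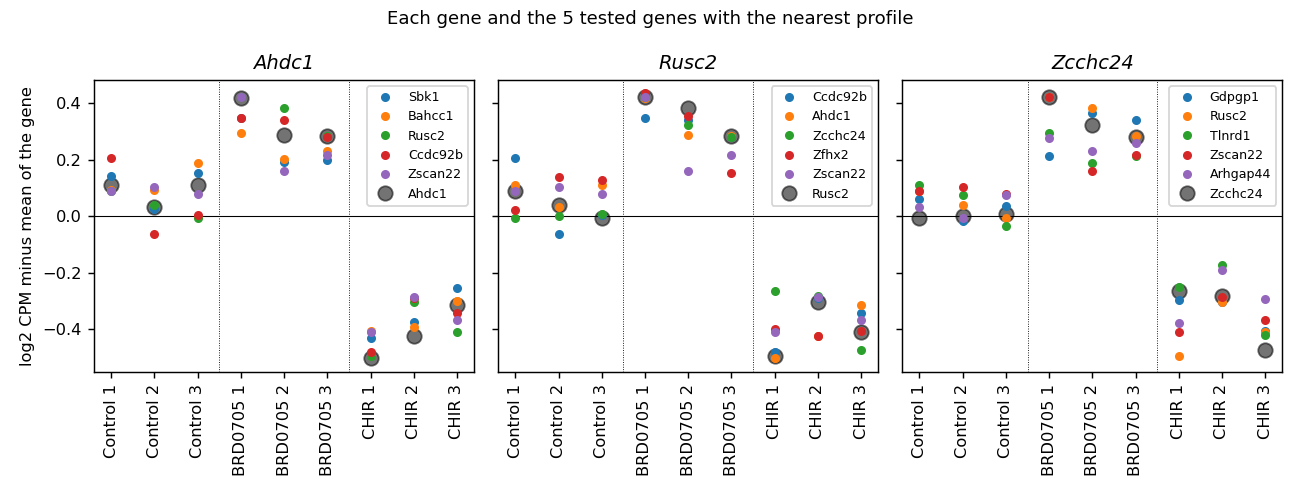
Log2 CPM minus the gene's own mean (y axis) in each of the 9 libraries (x axis) for Ahdc1, Rusc2 and Zcchc24 (large grey circles) and, in colour, the 5 tested genes with the nearest profile. The BRD0705 libraries lie above the control libraries and the CHIR libraries lowest in every gene drawn.

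Lists of related genes were used to see whether relatives and partners of the 3 genes differed as well. Of 18 AT-hook genes, the relatives of Ahdc1 by DNA-binding motif, 1 passed the edgeR threshold with BRD0705 (higher) and 2 with CHIR (both lower), with list medians of 0.09 and 0.05 on the log2 scale beside -0.004 and -0.009 for all tested genes. DESeq2 called 3 and 4, and 6 and 7 had an unadjusted p under 0.05. Over all tested genes, edgeR passed 1.22% and 6.30%, and 15.9% and 20.5% had an unadjusted p under 0.05. The BRD0705 median was 0.04 with the GC and length correction, and the CHIR median 0.02 when scaled by library size alone. The one higher with BRD0705 was Prr12, which encodes a proline-rich nuclear protein and is also one of the genes just outside the rule. Its group means were 182 ± 6.0 CPM (control), 217 ± 15.6 CPM (BRD0705) and 160 ± 4.73 CPM (CHIR; SD, n = 3 each). Its log2 differences were 0.25 ± 0.06 and -0.19 ± 0.06 (SE; edgeR adjusted p 0.0404 and 0.0530), from a transcript of 62.3% GC, and 11 of the 22 alternatives lost its BRD0705 call. Those lower with CHIR were Cbx2, a Polycomb subunit gene, by -0.22 ± 0.06 (SE; edgeR adjusted p 0.0268), and Zbtb24, a gene whose human counterpart is mutated in an immunodeficiency with unstable centromeres, by -0.32 ± 0.08 (SE; edgeR adjusted p 0.0236). Between inhibitors, 5 of the 18 were higher with BRD0705 than with CHIR and none lower (Hmga2, Prr12, Akna, Zbtb24 and Cbx2), where 4.80% of all tested genes were higher. Those of Prr12 and Cbx2 held in all 22 alternatives, and those of Hmga2, Zbtb24 and Akna were lost in 8, 8 and 5. Against control, the CHIR calls of Cbx2 and Zbtb24 were lost in 7 and 5 of the 22.

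Of 17 tested RUN domain genes, the family of Rusc2, 0 passed with BRD0705 by edgeR, by DESeq2 or by limma voom, and 5 had an unadjusted p under 0.05. Over all tested genes, edgeR passed 1.22% with BRD0705 and 6.30% with CHIR, and 15.9% had an unadjusted p under 0.05 with BRD0705. With CHIR 1 passed, Dennd5b, a Rab activator gene, which was lower by -0.37 ± 0.09 (SE; edgeR adjusted p 0.0262). That call was lost in 7 of the 22 alternatives. The list medians were 0.10 with BRD0705 and 0.03 with CHIR, or 0.06 with the GC and length correction and 0.00 by library size alone. The closest relative, Rusc1, had group means of 13.6 ± 1.16 CPM (control), 14.5 ± 2.17 CPM (BRD0705) and 13.9 ± 1.67 CPM (CHIR; SD, n = 3 each), with overlapping groups and log2 differences of 0.09 ± 0.11 and 0.03 ± 0.11 (SE). Between inhibitors 3 of the 17 were higher with BRD0705, where 4.80% of all tested genes passed in that direction. They were Rufy1, Rundc1 and Rubcn (which encodes Rubicon, an inhibitor of autophagy). Their log2 differences were 0.46 ± 0.10, 0.37 ± 0.09 and 0.26 ± 0.07 (SE; adjusted p by edgeR 0.00917, 0.0140 and 0.0285). These calls were lost in 3, 4 and 9 of the 22 alternatives.

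Of 18 genes for AP-4, ATG9A, kinesin-1 and Rab partners of the Rusc2 protein, 0 passed with BRD0705 by edgeR, by DESeq2 or by limma voom, with 1 at an unadjusted p under 0.05. Over all tested genes, edgeR passed 1.22% with BRD0705 and 6.30% with CHIR, and 15.9% had an unadjusted p under 0.05 with BRD0705. With CHIR 1 passed, Tepsin, an accessory protein gene of AP-4, which was higher, at 35.8 ± 0.739 CPM against 29.7 ± 1.49 CPM in control (SD, n = 3 each; log2 difference 0.27 ± 0.07 SE, edgeR adjusted p 0.0270). The Tepsin call was lost in 7 of the 22 alternatives. The list medians were -0.06 and -0.02. Of 19 CCHC zinc knuckle genes, the relatives of Zcchc24, 0 passed with BRD0705 by edgeR and by limma voom, 2 by DESeq2, and 7 had an unadjusted p under 0.05. With CHIR 2 passed, both lower: Zcchc14 by -0.23 ± 0.06 (SE; edgeR adjusted p 0.0431) and the splicing factor gene Srsf7 by -0.18 ± 0.05 (SE; edgeR adjusted p 0.0425). These 2 calls were lost in 16 and 15 of the 22 alternatives. The list medians were -0.01 and 0.04. Between inhibitors, Zcchc14 and Zcchc2 were higher with BRD0705 and Cnbp lower, calls lost in 0, 7 and 8 of the 22 alternatives. Over all tested genes, 4.80% were higher and 2.97% lower by edgeR.

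**Figure D5:**
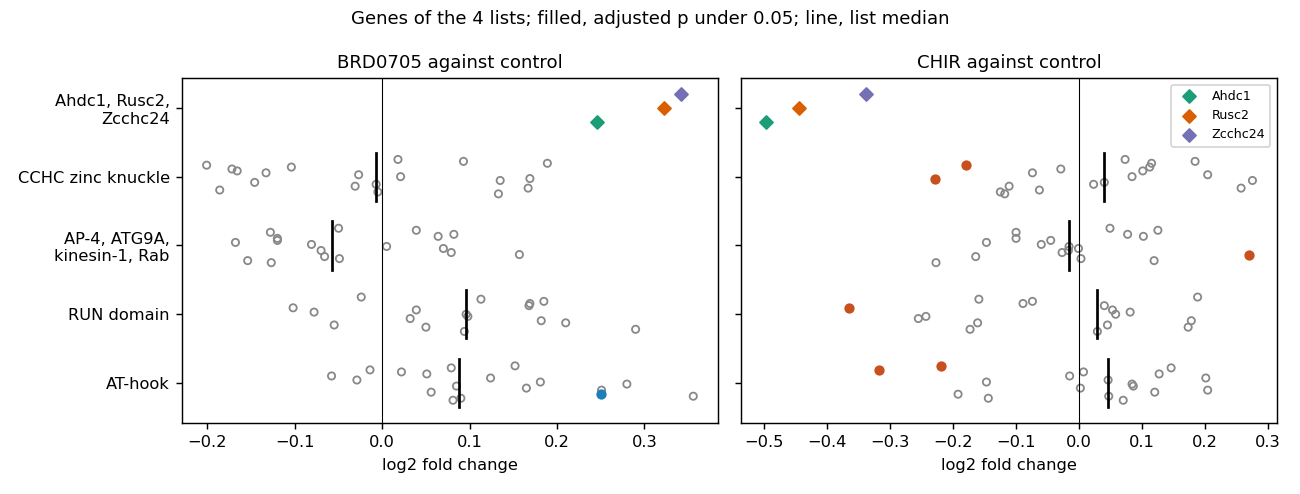
Log2 fold change against control (x axis) of the tested genes of the 4 lists, with BRD0705 on the left and CHIR on the right; filled circles passed an adjusted p of 0.05 in edgeR, lines are list medians and diamonds Ahdc1, Rusc2 and Zcchc24. With BRD0705 1 list gene, Prr12, is filled, and with CHIR 6 are; list medians lie between -0.06 and 0.10.

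Neighbouring genes on the chromosome were examined because a difference that spans a locus would appear in them. Of the 12 nearest tested genes, 2 on each side of each gene, 0 passed against control with either inhibitor by edgeR, DESeq2 or limma voom. An unadjusted p under 0.05 was reached by 4 with BRD0705 and 1 with CHIR, where 15.9% and 20.5% of all tested genes reached it. The adjusted threshold was passed by 1.22% and 6.30% of all tested genes by edgeR. The median log2 difference of the 12 was 0.15 with BRD0705 and 0.02 with CHIR. For all tested genes it was -0.004 and -0.009. With the GC and length correction, the BRD0705 median of the 12 was 0.11. Whether a difference spans any of these loci was not tested. Wasf2, 52.4 kb beyond Ahdc1, was at 0.15 ± 0.06 with BRD0705 and -0.04 ± 0.06 with CHIR in log2 units (SE). Fam76a was at -0.03 ± 0.07 and 0.04 ± 0.07, and Fgr at 0.15 ± 0.15 and -0.11 ± 0.16. Tesk1, 15.2 kb beyond Rusc2, was at 0.23 ± 0.09 and 0.01 ± 0.09, and Unc13b at -0.08 ± 0.09 and 0.09 ± 0.09. Zmiz1, 44.9 kb from Zcchc24, was at 0.23 ± 0.08 and -0.05 ± 0.08, and passed between inhibitors (log2 difference 0.28 ± 0.08 SE, edgeR adjusted p 0.0443), a call lost in 15 of its 22 alternatives. Zmiz1 was the only 1 of the 12 called between inhibitors, where 7.77% of all tested genes passed by edgeR. Ppif was at 0.13 ± 0.06 under both inhibitors and Anxa11 at 0.01 ± 0.06 and -0.11 ± 0.06. Gpr3, Atp8b5, Cd72 and Cphx1 had standard errors of 0.40 to 0.85 against control, and log2 differences of -1.57 to 1.26. In the annotation used, each of the 3 genes overlaps genes on the opposite strand and none on its own. Of those overlapping genes 1, which overlaps Rusc2, has a row in the count table (Fam166b), with 15 counts over all libraries.

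The reverse pattern was seen in Cirbp, which encodes a cold-inducible RNA-binding protein. Its control libraries were at 30.2, 31.3 and 27.9 CPM, its BRD0705 libraries at 23.2, 24.2 and 25.3 CPM and its CHIR libraries at 37.5, 35.4 and 38.7 CPM. The order was CHIR above control above BRD0705 with no overlap; over all tested genes, 10.4% had every BRD0705 library below every control and 10.9% every CHIR library above. The log2 differences from control were -0.30 ± 0.07 and 0.32 ± 0.07 (SE), close in size to those of Zcchc24 with the signs exchanged. Their direction held in all 22 alternatives, which reuse the libraries that picked out Cirbp, but Cirbp passed the threshold in both contrasts in 9 of the 22. Its transcript is 53.8% GC.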

How the data were processed

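RNA sequencing counts from 9 libraries, 3 per group, were analysed. The sample names in the labels gave group and replicate number. The authors deposited whole-number read counts per gene symbol, and a table of the same counts divided by 1 size factor per library, used here as a signal in an alternative (all of its values, 100%, were within 0.01 read of a whole count once multiplied back). Per the submitters' processing notes RSEM, DESeq2 and the build mm10 were used, in roles not given. The annotation, the use of strand and the counting options are not given in the sources used here. Labels describe both ribosomal RNA depletion and polyA RNA.

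The test was that of edgeR 4.0.16 (R 4.3.3): TMM scaling, filterByExpr with a minimum count of 10, the quasi-likelihood test on 3 group means (6 residual degrees of freedom), 2-sided, with Benjamini-Hochberg adjustment over 15366 genes. Log2 CPM used a prior count of 2. The script was tested on simulated data. The genes and lists were chosen with earlier results of these data known. Also named are Cirbp, list genes past the threshold, Rusc1, the 5 nearest profiles, 2 tested neighbours on each side and 3 genes just outside the rule.

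GC content and length came from the longest GENCODE vM39 transcript of each symbol (98.5% of tested genes), positions and start regions from RefSeq on GRCm38.p6. The GC and length correction removed splines with 5 degrees of freedom each per library, centred on their median. DESeq2 1.42.0, limma 3.58.1, other scalings and filters, the 2 groups alone, the replicate block, the fibroblast covariate and leaving out each library were the alternatives. Libraries of one number did not deviate together in all pairs (correlation -0.0897 to 0.0802).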

Additional observations from a re-analysis of the deposited data

How the results depend on the processing

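Differences of Ahdc1, Rusc2 and Zcchc24 from control kept their direction in all 22 alternatives, which reuse the libraries that chose the genes. Most moved by less than the spread between replicates. With the GC and length correction the BRD0705 difference from control was 0.10 for Ahdc1 and 0.20 for Rusc2, and that from CHIR 0.62 and 0.67, the same values with and without the replicate block. With the fibroblast covariate Zcchc24 was at 0.23 with BRD0705 and -0.42 with CHIR. Without 1 library each, BRD0705 against control ranged from 0.20 to 0.28 for Ahdc1, 0.29 to 0.37 for Rusc2 and 0.30 to 0.38 for Zcchc24, CHIR against control from -0.54 to -0.44, -0.49 to -0.39 and -0.37 to -0.27, and BRD0705 against CHIR from 0.69 to 0.79, 0.72 to 0.81 and 0.61 to 0.72.

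Counts of called genes moved more. For BRD0705 against control (188 genes) they were 609 with no low-count filter, 477 with DESeq2, 0 with the deposited normalized values in limma at either pseudocount (1 or 0.1), 117 with the GC and length correction, 105 with that and the replicate block, and 0 with the fibroblast covariate. For CHIR against control (968) the normalized values gave 428 and 424 and the covariate 240, and for BRD0705 against CHIR (1194) the normalized values gave 590 and 579. Genes called in opposite directions (4) numbered 20 with no filter, 8 with DESeq2, 0 with either pseudocount, 2 with the GC and length correction, 1 with that and the block, and 0 with the covariate. Without 1 library each, these counts ranged from 21 to 305, 514 to 1070, 616 to 1313 and 0 to 7. For BRD0705 against control there were 21, 55 and 305 genes without BRD0705 replicates 1, 2 and 3, 292, 37 and 51 without control replicates 1, 2 and 3, and 98 without CHIR replicate 2. For CHIR against control there were 633 and 514 without CHIR replicates 1 and 2, and 523 and 561 without control replicates 2 and 3. For BRD0705 against CHIR there were 616 and 756 without BRD0705 replicates 1 and 2, and 675 and 617 without CHIR replicates 1 and 2. The cause was not tested.

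The replicate block, by label number only, gave 222 genes for BRD0705 against control, 973 for CHIR against control and 1177 for BRD0705 against CHIR, and 3 in opposite directions, Caskin2, Rusc2 and Zcchc24, with Ahdc1 and Cirbp no longer among them; same-numbered libraries had a mean correlation of -0.00119 over 9 pairs. The sign of Rusc1, not called, turned for BRD0705 with the GC and length correction (0.00), for CHIR with the covariate (-0.03), between inhibitors with the GC correction (-0.01, also with the block), and without 1 library (range -0.03 to 0.19 for BRD0705, -0.04 to 0.13 for CHIR with -0.02 among them, and -0.07 to 0.15 between inhibitors with -0.03 among them). Bahcc1 with BRD0705 was at -0.04 with the correction, with and without the block. Depth behind the 3 genes was 418 to 4811 counts per library.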
